A study of Arabidopsis thaliana with 18 samples.

Results

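Late embryogenesis abundant (LEA) proteins are small, very hydrophilic proteins that accumulate in drying seeds and in vegetative tissue that loses water. The genes described here are 10 LEA genes that are not dehydrins, of 24532 genes in a deposited count table of Arabidopsis thaliana roots. They were picked by name with their response to salt in these libraries already known, so values at 150 mM against 0 mM NaCl describe that choice. Which of them passed the threshold of the fit is stated as part of that description, beside the share of all genes that did, and supports nothing. LEA7, AT3G17520, AT3G15670, COR15A and COR15B belong to the LEA_4 family, and LEA4-5, LEA4-1 and LEA18 to the LEA_1 family. LEA14 is of the LEA_2 family and SAG21 of the LEA_3 family.

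Roots of wild type (WT) and of lines C4 and B2 were sequenced after growth at 0 or 150 mM NaCl. Per the labels, both lines carry an isoprene synthase gene of Eucalyptus globulus behind the promoter of RBCS1A, a Rubisco small subunit gene that is best known from leaves. Of 17 libraries, WT gave 3 without and 2 with salt, and C4 and B2 gave 3 each per condition. Whether a library stands for plants of its own is not stated in the labels, so the p-values rest on a spread that could be technical. The protocols in the labels describe an empty vector line as control for growth measurements, and the libraries analysed here have WT in that place. Plant age and time in salt of the 150 mM plants are not given in the sources used here.

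Libraries held 54233853 to 91527683 counts, and all 10 genes passed the filter on low counts. Root markers were detected in every library, at a summed level of 339 to 562 CPM (counts scaled to library size). Markers of seeds, where LEA genes are best known, summed to at most 0.164 CPM in any library, and the seed storage genes SESA2 and SESA3 were at 0 counts in all 17. Shoot markers summed to 48.3 to 118 CPM at 0 mM and 71.5 to 143 CPM at 150 mM. In bulk roots, fewer cells of a type and less RNA per cell cannot be told apart. The library labelled B2 0 mM, library 3, and the library labelled WT 150 mM, library 2, went against their labels in genes that otherwise separate the genotypes. B2 0 mM library 3 held 96.7 CPM of the annexin gene ANNAT3, against 0.457 to 1.36 CPM in the other B2 libraries. It held 0.0498 CPM of MRD1, against 36.3 to 42.3 CPM in the other B2 libraries. WT 150 mM library 2 held 33.3 CPM of MRD1, against 0.0965 to 2.08 CPM in the other WT libraries. Its ANNAT3 level was 75.8 CPM, against 90.0 to 179 CPM in the other WT libraries and 59.1 to 178 CPM in C4. Salt differences of the members other than COR15B and LEA4-1, counts of members called and median differences from WT at 150 mM are given in 2 ways. These are with and without the libraries that went against their labels. Differences of B2 from the other genotypes at 0 mM are printed with library 3 included.

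LEA genes of vegetative tissue are known targets of abscisic acid (ABA), the hormone of water deficit, and of cold and dehydration signalling. Basic leucine zipper factors of the ABF group bind the ABA-responsive element (ABRE), whose core is ACGTG, and factors of the CBF and DREB2 groups bind the C-repeat or dehydration-responsive element (CRT/DRE), whose core is CCGAC. LEA proteins are mostly disordered in water and can keep enzymes and membranes intact during drying.

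The sequences upstream of 6 of the genes, from the LEA_4, LEA_1 and LEA_2 families, are shown to place these elements beside the expression values. Each is the 250 bases before the annotated start (189 for LEA4-1, whose window reaches into a neighbouring gene), read 5′ to 3′ on the gene's strand from RefSeq TAIR10.1. Capitals mark ACGTG or its reverse complement CACGT, the palindrome CACGTG where both overlap, and CCGAC or its reverse complement GTCGG.
LEA7: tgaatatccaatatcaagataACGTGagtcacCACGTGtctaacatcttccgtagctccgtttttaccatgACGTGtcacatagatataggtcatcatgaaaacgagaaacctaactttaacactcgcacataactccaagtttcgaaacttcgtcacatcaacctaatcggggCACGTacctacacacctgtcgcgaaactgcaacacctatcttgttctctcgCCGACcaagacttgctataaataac
AT3G15670: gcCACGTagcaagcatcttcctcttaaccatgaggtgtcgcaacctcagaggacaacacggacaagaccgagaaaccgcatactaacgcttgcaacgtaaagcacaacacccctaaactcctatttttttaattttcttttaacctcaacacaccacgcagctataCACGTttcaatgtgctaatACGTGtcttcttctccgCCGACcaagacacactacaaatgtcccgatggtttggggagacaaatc
COR15A: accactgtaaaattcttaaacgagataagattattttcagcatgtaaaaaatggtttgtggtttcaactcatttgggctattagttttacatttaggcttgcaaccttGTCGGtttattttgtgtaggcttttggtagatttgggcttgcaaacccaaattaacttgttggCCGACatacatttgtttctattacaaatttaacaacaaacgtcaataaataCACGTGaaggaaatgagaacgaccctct
LEA4-5: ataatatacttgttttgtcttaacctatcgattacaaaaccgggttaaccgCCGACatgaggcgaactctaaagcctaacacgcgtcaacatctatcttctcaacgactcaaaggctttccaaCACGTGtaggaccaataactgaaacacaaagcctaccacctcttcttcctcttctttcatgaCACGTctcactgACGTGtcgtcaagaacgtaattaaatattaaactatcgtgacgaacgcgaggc
LEA4-1: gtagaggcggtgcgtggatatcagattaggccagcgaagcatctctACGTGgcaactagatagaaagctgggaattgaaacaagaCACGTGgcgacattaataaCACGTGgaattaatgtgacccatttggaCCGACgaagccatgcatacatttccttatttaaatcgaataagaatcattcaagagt
LEA14: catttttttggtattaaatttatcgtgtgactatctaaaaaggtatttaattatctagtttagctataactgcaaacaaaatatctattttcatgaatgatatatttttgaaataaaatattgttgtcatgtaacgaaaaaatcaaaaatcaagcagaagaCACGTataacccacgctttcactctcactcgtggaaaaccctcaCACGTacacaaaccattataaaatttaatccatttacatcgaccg
The stretches lie at chr1:19619474-19619723 (plus strand) for LEA7, chr3:5310989-5311238 (minus) for AT3G15670, chr2:17712331-17712580 (minus) for COR15A, chr5:2090431-2090680 (minus) for LEA4-5, chr1:11774295-11774483 (plus) for LEA4-1 and chr1:172949-173198 (minus) for LEA14. The stretch before SAG21 is the contrast, since it holds neither core on either strand, and it lies at chr4:1047106-1047355 (minus).
SAG21: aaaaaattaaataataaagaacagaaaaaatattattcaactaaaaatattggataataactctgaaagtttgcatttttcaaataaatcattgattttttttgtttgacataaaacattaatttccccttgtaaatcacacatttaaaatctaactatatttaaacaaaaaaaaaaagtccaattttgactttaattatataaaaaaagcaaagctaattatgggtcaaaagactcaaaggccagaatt

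ACGTG was found on either strand in 8 of the 10 windows of 250 bases, and each of the 8 held it at least 2 times when strands were counted separately. Of 24527 windows of protein-coding genes, 23.6% held it and 9.41% held it at least 2 times. Because a CACGTG palindrome is read on both strands, the number of separate sites is lower, from 4 before LEA7 to 1 before COR15A. CCGAC was found in 7 of the 10 windows against 12.1% of all windows, and COR15A, whose cold response is the textbook case of this element, held it at 2 sites. LEA14 held ACGTG at 2 sites and no CCGAC. COR15B and SAG21 held neither. The window of COR15B covers 243 bases of COR15A itself, because both genes lie 7 bases apart on the same strand, so it is not an upstream region of its own. With the 50 bases after the start included, 8 of 10 windows held ACGTG and 8 held CCGAC, against 27.5% and 15.1% of all windows. These matches describe letters in a window and do not show that a factor binds there.

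**Figure D1:**
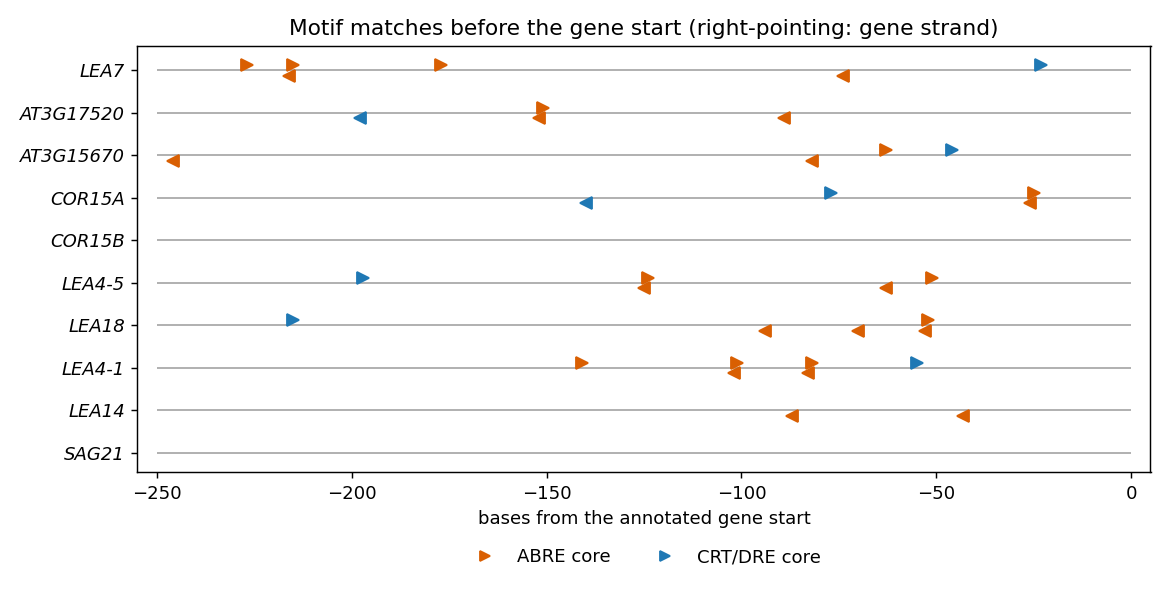
Position of ACGTG (ABRE core, orange) and CCGAC (CRT/DRE core, blue) in the 250 bases before each gene's annotated start, in bases on the x axis. Right-pointing marks lie on the gene's strand and left-pointing ones on the other; the rows of COR15B and SAG21 are empty.

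LEA7 (AT1G52690, chromosome 1, 19619724 to 19621534, TAIR10) encodes a LEA_4 protein and was low without salt and among the highest of the 10 with it. It held 0.648, 3.50 and 6.64 CPM in the WT libraries at 0 mM, 6.19, 17.1 and 5.13 CPM in C4 and 2.53, 7.98 and 3.96 CPM in B2. At 150 mM it held 540.2 and 192 CPM in WT, 193, 472 and 313 CPM in C4 and 122, 322 and 202 CPM in B2. Every salt library lay far above every library without salt. The fitted difference between salt and no salt was 6.67 ± 0.92 (SE) on the log2 scale in WT, a 102-fold higher level, 5.10 ± 0.83 in C4 (34.3-fold) and 5.48 ± 0.85 in B2 (44.6-fold). Single libraries moved the size of these folds. The WT fold was 53.5 when WT 150 mM library 1 was left out and 174 when WT 0 mM library 4 was, and the C4 fold was 57.3 when C4 0 mM library 2 was. Without both libraries that went against their labels the folds were 148 in WT and 41.1 in B2.

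AT3G17520 (chromosome 3, 5999174 to 6000447), a LEA_4 gene with 1 coding exon, was low without salt and reached 70.4 CPM with it. At 0 mM it held 0.108, 0.643 and 0.617 CPM in WT, 1.21, 1.46 and 1.05 CPM in C4 and 0.539, 1.75 and 0.698 CPM in B2. At 150 mM it held 64.8 and 19.8 CPM in WT, 29.3, 70.4 and 51.0 CPM in C4 and 19.6, 48.9 and 26.5 CPM in B2. Libraries with and without salt did not overlap in any genotype. Salt libraries differed from those without by 6.51 ± 0.73 log2 units in WT, by 5.33 ± 0.66 in C4 and by 4.98 ± 0.65 in B2, which is 91.1-fold, 40.2-fold and 31.6-fold. The WT fold was 42.7 with library 1 of WT at 150 mM left out and 138 with library 2 left out, and the B2 fold was 51.1 without B2 0 mM library 2.

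AT3G15670 (chromosome 3, 5309886 to 5310988) is the LEA_4 member whose coding sequence is most like that of LEA7, at 80.5% of aligned bases. It held 0.189, 0.375 and 1.19 CPM in WT at 0 mM, 1.77, 4.44 and 0.767 CPM in C4 and 0.783, 3.82 and 0.735 CPM in B2. With salt it held 94.9 and 29.6 CPM in WT, 34.6, 98.9 and 63.0 CPM in C4 and 29.7, 70.2 and 33.1 CPM in B2, again with no overlap between the conditions. Its log2 differences of 6.74 ± 1.01, 4.79 ± 0.88 and 4.63 ± 0.87 in WT, C4 and B2 are 107-fold, 27.7-fold and 24.8-fold. In WT it was 51.0-fold with library 1 of the salt group left out, 162-fold with library 2 left out, and 214-fold with library 4 of the group without salt left out. Without C4 0 mM library 2 the C4 fold was 51.0, and without B2 0 mM library 2 the B2 fold was 58.5. Reads that map to more than 1 place were not counted, so the counts of LEA7 and AT3G15670 may both be too low.

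COR15A (AT2G42540, chromosome 2, 17710441 to 17712330) encodes a chloroplast protein that stabilises membranes during freezing. Its level at 0 mM was 0.162, 0.0858 and 0.470 CPM in WT, 0.486, 0.837 and 0.346 CPM in C4 and 0.334, 0.527 and 0.150 CPM in B2. At 150 mM it was 25.7 and 4.62 CPM in WT, 4.78, 27.7 and 12.3 CPM in C4 and 2.73, 14.7 and 6.15 CPM in B2. All salt libraries lay above all libraries without salt, while the highest salt library of a group held at least 5.39 times the lowest. On the log2 scale the difference was 6.01 ± 1.02 in WT (64.5-fold), 4.72 ± 0.91 in C4 (26.4-fold) and 4.54 ± 0.93 in B2 (23.2-fold). In WT the fold was 19.7 with library 1 of the salt group left out, 108 with library 2 left out, and 124 with library 4 of the group without salt left out. Without C4 150 mM library 2 the C4 fold was 15.1, and without B2 150 mM library 2 the B2 fold was 13.1.

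COR15B (AT2G42530, chromosome 2, 17708593 to 17710433), the tandem copy of COR15A with 83.8% identity over 420 aligned coding bases, stayed near the detection limit. No read was counted in the 3 WT libraries at 0 mM. A floor of 3 counts, which covers counting error only, is 0.0124 CPM over the group. It treats counts as independent, but a read pair counts 2 times, so the level that counting error allows is higher. Single libraries of C4 and B2 at 0 mM held 8 and 4 counts and the others 0. At 150 mM COR15B held 2.13 and 0.278 CPM in WT, 0.106, 0.461 and 0.460 CPM in C4 and 0.0246, 0.396 and 0.126 CPM in B2. WT at 150 mM was at 98.3 times the floor of WT at 0 mM, and library 1 held 174 of its 196 counts. With library 2 alone, at 22 counts, the level was at 22.4 times that floor. Because of the read pairs, neither value is a strict minimum of the fold. The WT libraries did not overlap, whereas the salt libraries of C4 and B2 overlapped those without salt. Reads that matched COR15A and COR15B equally well were not counted for either, so both levels are uncertain.

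LEA4-5 (AT5G06760, chromosome 5, 2089445 to 2090430) encodes a LEA_1 protein known to protect enzymes during drying and to add to tolerance of water deficit. It held 1.16, 4.32 and 9.02 CPM in WT at 0 mM, 9.19, 14.5 and 4.27 CPM in C4 and 2.35, 10.8 and 5.88 CPM in B2. At 150 mM it held 555 and 161 CPM in WT, 133, 399 and 225 CPM in C4 and 94.8, 313 and 149 CPM in B2. The ranges did not overlap, and with salt they covered much the same levels as LEA7. The log2 difference was 6.21 ± 0.96 in WT (74.1-fold), 4.76 ± 0.87 in C4 (27.1-fold) and 4.87 ± 0.88 in B2 (29.2-fold). Leaving out library 1 or 2 of WT at 150 mM gave 33.4-fold or 113-fold in WT, and leaving out library 4 of WT at 0 mM gave 129-fold. The B2 fold was 19.2 without B2 150 mM library 2 and 45.1 without B2 0 mM library 2.

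LEA18 (AT2G35300, chromosome 2, 14862779 to 14863412), the shortest of the 3 LEA_1 members with 294 coding bases, showed the same order at a lower level. It held 0.337, 0.686 and 0.577 CPM in WT at 0 mM, 0.286, 0.212 and 0.331 CPM in C4 and 0.205, 0.465 and 0.486 CPM in B2. At 150 mM it held 14.4 and 3.81 CPM in WT, 2.65, 9.01 and 5.52 CPM in C4 and 2.1, 6.91 and 3.17 CPM in B2. No salt library overlapped a library without salt. This was a log2 difference of 4.08 ± 0.64 in WT (17.0-fold), 4.38 ± 0.64 in C4 (20.8-fold) and 3.39 ± 0.61 in B2 (10.5-fold). It was 7.11-fold in WT when library 1 of the salt group was left out, 26.5-fold when library 2 was, and 6.79-fold in B2 without B2 150 mM library 2.

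LEA4-1 (AT1G32560, chromosome 1, 11774484 to 11775442) is the LEA_1 member that stayed low in every library, and 3 separate ACGTG sites and 1 CCGAC site precede its start. At 0 mM it held 0.189, 0.343 and 0.0537 CPM in WT, 0.2, 0.179 and 0.180 CPM in C4 and 0.0770, 0.147 and 0.0498 CPM in B2. At 150 mM it held 1.05 and 0.303 CPM in WT, 0.106, 0.654 and 0.230 CPM in C4 and 0.221, 0.898 and 0.126 CPM in B2. The conditions overlapped in all 3 genotypes. WT differed by 1.78 ± 0.93 log2 units, C4 by 0.83 ± 0.88 and B2 by 2.16 ± 0.92, none past the threshold. Single libraries moved these values: leaving out WT 150 mM library 1 gave 0.62, leaving out B2 150 mM library 2 gave 0.92, and leaving out C4 150 mM library 2 turned C4 to -0.13. Left out in turn, library 2 of WT at 150 mM gave 2.40 in WT, library 3 of WT at 0 mM gave 2.46, and library 2 of B2 at 0 mM gave 2.68 in B2.

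LEA14 (AT1G01470, chromosome 1, 171525 to 172948) encodes a LEA_2 protein, a family that is folded rather than disordered. It was well expressed without salt, at 52.7, 86.2 and 121 CPM in WT, 89.4, 122 and 86.6 CPM in C4 and 95.1, 99.6 and 89.5 CPM in B2. With salt it held 585 and 468 CPM in WT, 337, 591 and 387 CPM in C4 and 233, 569 and 519.6 CPM in B2. The ranges did not overlap, and the log2 difference was 2.61 ± 0.36 in WT (6.09-fold), 2.14 ± 0.34 in C4 (4.42-fold) and 2.22 ± 0.34 in B2 (4.65-fold). No left-out library moved these folds by over 1.5 times.

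SAG21 (AT4G02380, chromosome 4, 1046042 to 1047105) encodes a mitochondrial LEA_3 protein known for its response to oxidative stress and senescence. Without salt it held 690.0, 400.0 and 415 CPM in WT, 367, 462 and 435 CPM in C4 and 506, 437 and 416 CPM in B2. With salt it held 551 and 482 CPM in WT, 551, 510.2 and 599 CPM in C4 and 451, 541 and 351 CPM in B2. It was the member that varied least, and the conditions overlapped in WT and B2 but not in C4. Its log2 difference for WT was 0.04 ± 0.22, for C4 0.39 ± 0.20 and for B2 -0.02 ± 0.20, none past the threshold. Without both libraries that went against their labels the difference was 0.12 in WT, from 1 salt library, and -0.07 in B2.

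**Figure D2:**
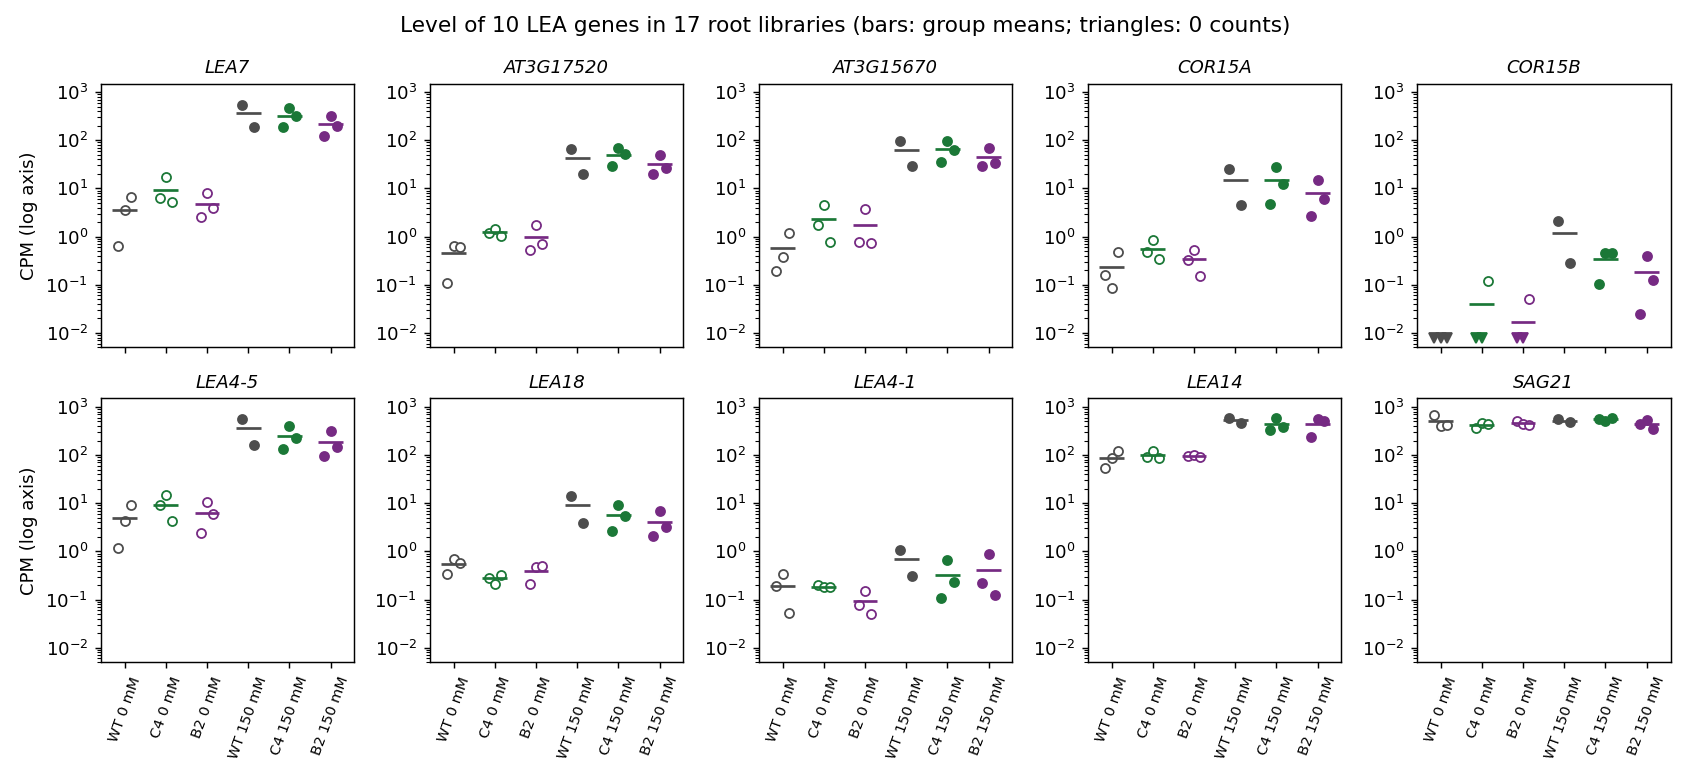
CPM of each gene by library on a log axis, with open circles at 0 mM, filled circles at 150 mM NaCl, bars at group means and triangles for libraries with 0 counts. LEA7 and LEA4-5 go from 0.648 to 17.1 CPM without salt to 94.8 to 555 CPM with it, while SAG21 stays between 351 and 690.0 CPM.

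In the contrast they were chosen on, 8 of the 10 genes were past the threshold and higher at 150 mM in WT, and 7 each in C4 and B2, by edgeR's quasi-likelihood test with Benjamini-Hochberg adjustment at 0.05. Called higher among all 21383 genes tested were 9.34% for WT, 6.56% for C4 and 9.19% for B2. No member was called lower, against 7.38%, 5.5% and 7.05% of all genes. The members were chosen on this contrast, so these counts restate the choice and nothing is read from them. The WT call of COR15B was lost without WT 150 mM library 1, at an edgeR adjusted p of 0.135. Over the 10 genes the log2 difference had a median of 6.11 for WT, 4.55 for C4 and 3.96 for B2, against medians of all genes between -0.0194 and -8.1e-05. Without WT 150 mM library 1 the WT median was 4.68. All salt libraries lay above all libraries without salt for 8 genes in WT, 8 in C4 and 7 in B2, against 23.4%, 18% and 17.4% of all genes. With both libraries that went against their labels left out, 8, 7 and 7 members were called. The B2 folds were then 27.6 for AT3G17520, 19.3 for AT3G15670, 28.3 for LEA4-5, 12.0 for LEA18, 18.2 for COR15A and 4.54 for LEA14. In WT they were 138, 162, 113, 26.5, 108 and 6.69 in the same order, from 1 salt library.

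**Figure D3:**
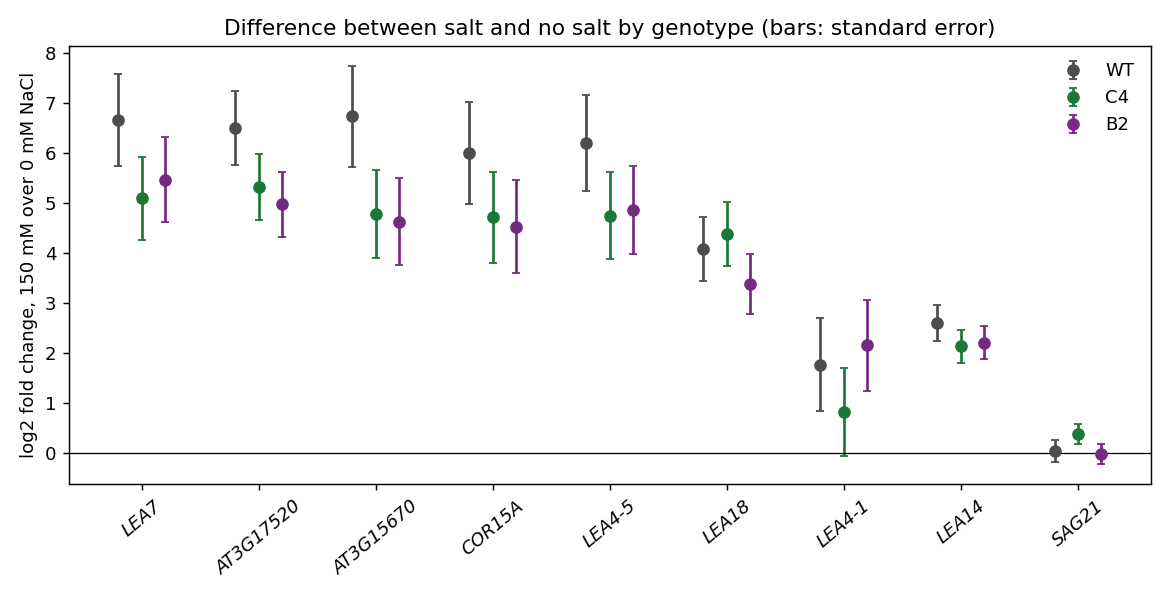
Log2 difference between 150 and 0 mM NaCl for 9 genes by genotype, with bars for the standard error of the fit; COR15B is left out because WT at 0 mM held no counts. LEA7, AT3G17520, AT3G15670, COR15A and LEA4-5 lie between 4.54 and 6.74, LEA18 between 3.39 and 4.38, LEA14 between 2.14 and 2.61, and SAG21 near 0.

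Levels of different genes were compared as CPM per kilobase of exon. Without salt SAG21 stood first in every group, at 518 ± 169 CPM per kb in WT (SD, n = 3), 435 ± 50.5 in C4 and 468 ± 49.0 in B2. LEA14 came second, with 64.2 ± 25.2 for WT, 73.6 ± 14.5 for C4 and 70.3 ± 3.74 for B2, and overlapped no neighbour in the order. LEA4-5 and LEA7 followed, at 5.35 ± 4.38 and 3.98 ± 3.32 in WT, and overlapped each other in all 3 genotypes. The other 6 genes had means of at most 2.28 CPM per kb in any group at 0 mM. With salt, LEA7 reached 405 ± 272 CPM per kb in WT (SD, n = 2), LEA4-5 397 ± 308 and LEA14 391 ± 61.2, and the ranges of these 3 genes overlapped in each genotype. SAG21 at 534 ± 50.6 was still first in WT but overlapped LEA7, and in C4 its lowest library lay above the highest of LEA7. AT3G15670 and AT3G17520 came next and overlapped each other, and LEA18 and COR15A overlapped each other below them, with LEA18 and COR15A also reaching into the range of AT3G17520 in WT. LEA4-1 and COR15B were last, both below 1 CPM per kb on average in each group.

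The summed level of the 10 genes showed the same shift in make-up. It was 599 ± 130.4 CPM in WT at 0 mM (SD, n = 3), 544 ± 73.8 in C4 and 563 ± 45.5 in B2, and 1899 ± 758 in WT at 150 mM (n = 2), 1708 ± 449.9 in C4 and 1378 ± 472 in B2 (n = 3 each). SAG21 made up 82.7% ± 9.02 of the sum in WT at 0 mM, 77.6% ± 3.67 in C4 and 80.5% ± 2.75 in B2. With salt its share was 29% ± 9.01 for WT, 34.1% ± 9.89 for C4 and 34.3% ± 11.2 for B2. The mean SAG21 level was 502 ± 163 CPM and 517 ± 48.9 CPM in WT, while the other 9 genes together went from 97.0 ± 41.9 to 1382 ± 709 CPM in WT. Without the libraries that went against their labels the sum was 585 CPM in B2 at 0 mM and 2435 CPM in WT at 150 mM, with SAG21 at 80.5% and 22.6% of it. The 10 genes held 46.9% to 60.3% of the reads of all 40 non-dehydrin LEA genes in the table at 0 mM and 54.5% to 63.0% at 150 mM.

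**Figure D4:**
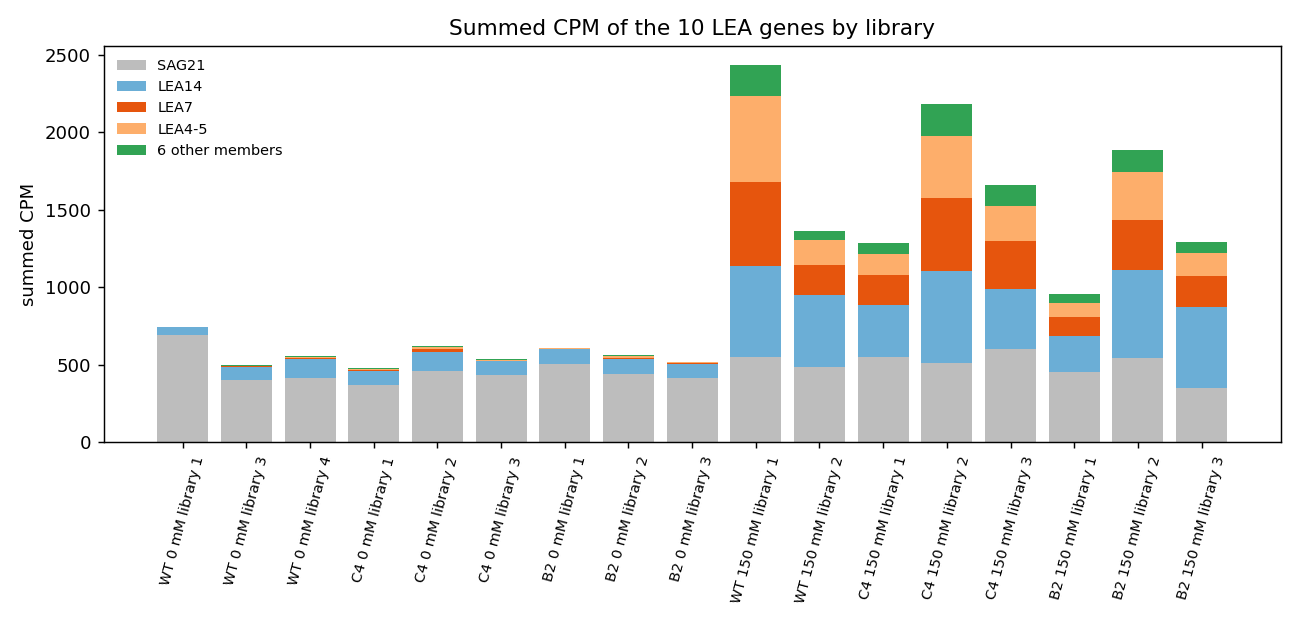
Stacked CPM of the 10 genes in each of the 17 libraries, with LEA14, LEA7, LEA4-5, SAG21 and the other 6 genes in separate colours. SAG21 takes 74.2% to 92.6% of the sum in libraries without salt and 22.6% to 47.2% in those with it.

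Libraries of 1 group differed in the same direction for most of these genes. In WT at 150 mM, library 1 was above library 2 for 10 of 10 genes, by 2.81 times for LEA7, 3.44 times for LEA4-5 and 1.14 times for SAG21. In C4 at 150 mM, library 2 was the highest for 9 genes and library 1 the lowest for 9. In B2 at 150 mM, library 2 was the highest for 10 and library 1 the lowest for 8. The 10 genes are thus not 10 separate looks at a condition, and a library that was high for LEA7 was high for most of the others. Without salt the order was less uniform, with the highest value in C4 library 2 and in B2 library 2 for 7 genes each and in WT library 4 for 5. In WT at 0 mM, libraries 1, 3 and 4 held 0.648, 3.50 and 6.64 CPM of LEA7 beside summed shoot markers of 48.3, 72.1 and 118 CPM, and the part of the shoot markers in this order was not tested. In B2 at 0 mM the library highest for LEA7 was the lowest in shoot markers, at 59.7 CPM. In WT at 150 mM shoot markers summed to 143 and 141 CPM in libraries 1 and 2, and root markers to 339 and 423 CPM.

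**Figure D5:**
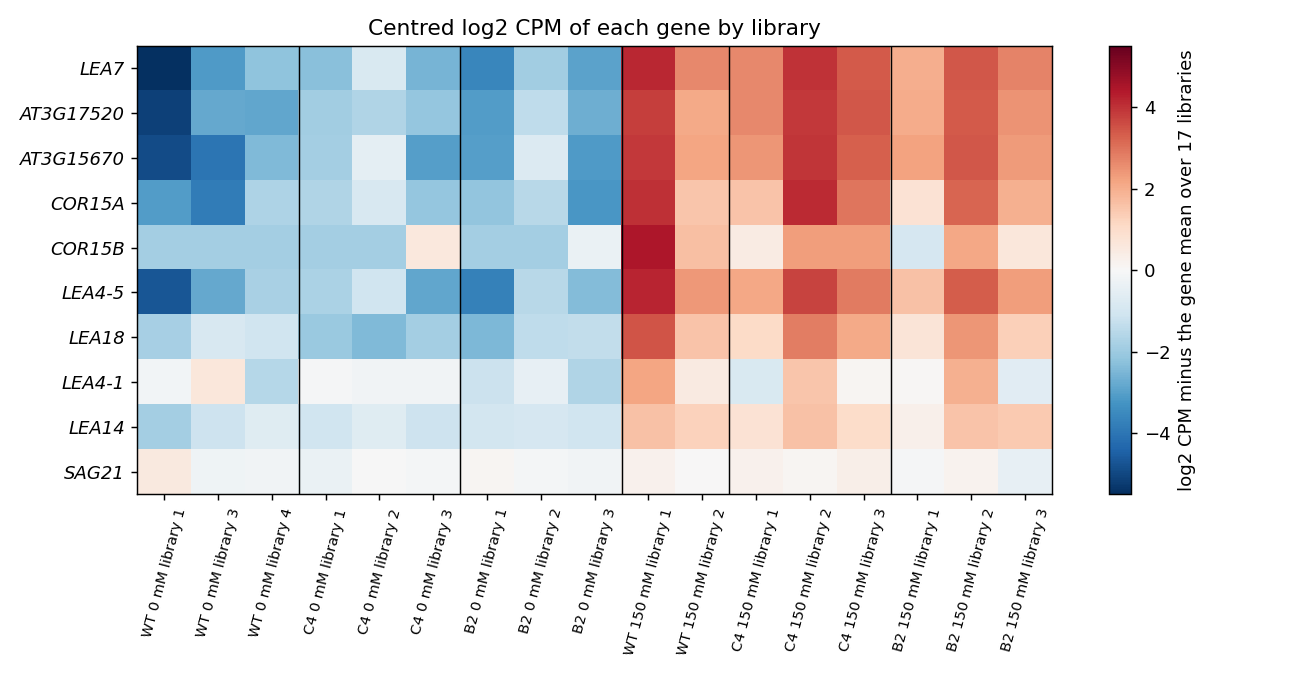
Log2 CPM (prior count 2) of each gene minus its mean over the 17 libraries, as colour from blue (below the mean) to red (above), with genes in rows and libraries in columns grouped by genotype and NaCl. WT 150 mM library 1, C4 150 mM library 2 and B2 150 mM library 2 are the reddest columns of their groups, and the SAG21 row, which spans 0.98 log2 units, is almost without colour.

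The design also asks whether the isoprene synthase lines and WT differ in these genes, which is another question than the salt contrast that chose them. The libraries are the same, however, and the 2 tests of a different salt response are differences between those salt contrasts. They are therefore not free of that choice. No member was called in any of 6 comparisons between genotypes within a condition or in the 2 tests of a different salt response, by edgeR or by DESeq2. The same held by edgeR with both libraries that went against their labels left out. Among all 21383 genes edgeR called 0% in each of these 8 comparisons, with 267 to 2170 genes at an unadjusted p under 0.05, and DESeq2 called 0 to 89 genes. Without B2 0 mM library 3, edgeR called 2 genes for C4 against WT at 0 mM and 4 for B2 against WT. It called 1 for C4 against B2, and no member was among these. Genes at an unadjusted p under 0.05 for B2 against WT at 0 mM then went from 314 to 834. Without salt, LEA7 averaged 9.47 ± 6.62 CPM in C4 and 3.60 ± 3.00 CPM in WT (SD, n = 3 each), a log2 difference of 1.40 ± 0.74 (SE) at an edgeR adjusted p of 1. AT3G15670 averaged 2.33 ± 1.90 CPM in C4 and 0.586 ± 0.535 CPM in WT, a log2 difference of 2.02 ± 0.89, also at an adjusted p of 1. It was the only member with an unadjusted p under 0.05 there, in an edgeR fit across all genes. AT3G17520 was higher in all 3 C4 libraries than in all 3 WT libraries (log2 difference 1.43 ± 0.67) and LEA18 was lower in all of them (-0.97 ± 0.63), against 4.5% and 4.38% of all genes. Neither was called. LEA4-1 was higher in CPM in all 3 C4 libraries than in all 3 B2 libraries (1.01 ± 0.92). This rested on 14, 16 and 12 counts in C4 against 6, 12 and 4 in B2, which touch before scaling. No member separated B2 from WT. Over all genes, C4 lay above B2 in all libraries for 2.67% and below for 2.7%, and B2 above WT for 2.85% and below for 2.29%. The median over the 10 genes was 1.11 for C4 against WT, 0.41 for B2 against WT and 0.48 for C4 against B2, beside all-gene medians of -0.0039, -0.0045 and -0.0027. The standard errors for C4 against WT were 0.63 to 0.98 in the 7 low members other than COR15B.

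At 150 mM the libraries of any pair of genotypes overlapped for all 10 genes. Over all genes, C4 lay above WT in all libraries for 10.7% and below for 11.8%, B2 above WT for 10.4% and below for 12.7%, and C4 above B2 for 6.15% and below for 6.81%. LEA7 averaged 366 ± 246 CPM in WT (n = 2), 326 ± 140.2 CPM in C4 and 215 ± 101 CPM in B2 (n = 3 each). The log2 difference was -0.17 ± 0.77 for C4 against WT and -0.77 ± 0.77 for B2 against WT. LEA14, measured at a high level, differed by -0.26 ± 0.36 for both lines. The fitted values of B2 were below WT for all 10 genes, beside an all-gene median of -0.0056. Their median was -0.74, and the lowest adjusted p by edgeR was 0.509. The 2 WT libraries pulled these values apart. Without WT 150 mM library 1 the median turned to 0.18, and that of C4 against WT turned from -0.22 to 0.61, with the library that went against its label as the only WT one. Without that library, WT 150 mM library 2, the medians were -1.32 for B2 and -0.74 for C4. With both libraries that went against their labels left out, LEA7 differed by -1.31 ± 0.96 in B2 and -0.72 ± 0.98 in C4 and LEA18 by -1.81 ± 0.60 in B2, and no member was called. C4 against B2 had a median of 0.53 with 8 of 10 genes higher in C4, beside an all-gene median of 0.0092, and none passed the test.

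Salt responses, the contrasts on which the members were chosen, were fitted as smaller in the lines for most members, with no call. The difference in response between C4 and WT was -1.57 ± 1.06 for LEA7, -1.95 ± 1.2 for AT3G15670, -1.45 ± 1.12 for LEA4-5 and 0.30 ± 0.85 for LEA18 on the log2 scale. Between B2 and WT it was -1.19 ± 1.06 for LEA7, -2.11 ± 1.21 for AT3G15670, -1.34 ± 1.13 for LEA4-5 and -0.70 ± 0.85 for LEA18. The values were negative for 8 of 10 genes in C4 and 9 of 10 in B2, and both comparisons share the WT libraries. Among them COR15B, at -6.37 and -6.20, rests on 0 counts in WT at 0 mM. The medians of the 10 genes were -1.23 and -1.27, beside all-gene medians of -0.0053 and -0.0040. The lowest edgeR adjusted p was 1 in C4 and 0.916 in B2. Without WT 150 mM library 1 the medians were -0.19 and -0.20, and without WT 150 mM library 2 they were -1.91 and -1.84. With both libraries that went against their labels left out they were -1.91 and -1.93, again with no member called.

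Among other non-dehydrin LEA genes both directions occurred. Of 30 such genes in the table, 20 passed the filter on low counts. In WT 10 were called higher and 1 lower, in C4 8 and 1 and in B2 6 and 1, at medians of 2.18, 1.49 and 1.18. Of all genes, 9.34%, 6.56% and 9.19% were called higher and 7.38%, 5.5% and 7.05% lower. The list was written with earlier results of these data known, so these counts are description only. The 5 with the highest mean level are named. AT3G02480, a LEA_4 gene, averaged 4.73 CPM without and 174 CPM with salt in WT, at a log2 difference of 5.21 ± 0.96, and rose by 3.56 ± 0.86 in C4 and 3.51 ± 0.86 in B2. AT2G23120 rose by 2.07 ± 0.24, 1.53 ± 0.22 and 1.49 ± 0.22, and DI21, a drought-induced LEA_3 gene like SAG21, by 1.01 ± 0.24, 1.01 ± 0.22 and 0.66 ± 0.22. AT2G46140, a LEA_2 gene like LEA14, fell by 0.55 ± 0.17 in WT and was also called lower in C4 and B2, so members of the LEA_2 family were called in opposite directions. AT2G44060, the LEA_2 gene with the highest level, was called in WT alone, at 0.43 ± 0.13.

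Dehydrins are the LEA class left out here. Of 10 dehydrin genes 9 were tested, and 7 were called higher in WT, 7 in C4 and 8 in B2, at medians of 2.29, 2.88 and 2.12. These counts also describe a list written with earlier results known, beside 9.34%, 6.56% and 9.19% of all genes called higher. The 4 with the highest mean level are named, and others were lower, such as RAB18 at 1.39 CPM without and 61.9 CPM with salt in WT. COR47 averaged 1081 CPM at 0 mM and 5297 CPM at 150 mM in WT, ERD10 315 and 2465 CPM, and ERD14 546 and 1964 CPM. Their log2 differences of 2.29 ± 0.37, 2.97 ± 0.38 and 1.85 ± 0.28 were close in size to that of LEA14, and the difference between genes was not tested. AT1G54410 differed by 0.50 ± 0.17 in WT without a call, and was called in B2 at 0.59 ± 0.16.

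Expression of the factor groups known to bind ACGTG or CCGAC was looked at as well. Whether these factors act on the members was not tested. The list of factors, like the others, was written with earlier results of these data known, so its count is description only. Of 11 listed factors of the ABF, CBF and DREB2 groups, 9 were called higher in each genotype, and none lower. Of all genes, 9.34% were called higher in WT, 6.56% in C4 and 9.19% in B2. The median log2 difference of the 11 factors was 1.91 for WT, 1.78 for C4 and 2.04 for B2. ABF3 averaged 116 CPM at 0 mM and 306 CPM at 150 mM in WT, a log2 difference of 1.40 ± 0.23, and ABF2 differed by 1.80 ± 0.25 and ABF4 by 0.88 ± 0.17. DREB2A, a factor of dehydration and heat, went from 21.0 to 79.0 CPM in WT at 1.91 ± 0.34. No member, dehydrin or factor was called between genotypes by edgeR.

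The genes whose pattern over the 17 libraries was most like the median pattern of the 10 members were sought among 15410 other genes averaging 5 CPM or more. Likeness was the root mean square difference of centred log2 CPM, so a smaller value is closer, and libraries share salt as well as any other source of variation. AT3G51750 came first at 0.463, followed by the heat shock factor gene HSFA6B at 0.51, AT1G16850 at 0.56, LTI78 at 0.58, the dehydrin gene RAB18 at 0.589 and LOG5, a gene of cytokinin activation, at 0.594. LTI78, also called RD29A and a widely used marker of cold, salt and ABA responses, averaged 59.7 CPM at 0 mM and 2146 CPM at 150 mM in WT. Of the members themselves, COR15A was closest to their median pattern at 0.555 and LEA18 next at 0.643, while LEA4-1 at 1.68 and SAG21 at 2.12 were farthest.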

How the data were processed

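Root mRNA was sequenced. The deposited values are raw counts, 1 per gene and library. The authors made these counts with featureCounts 2.0.3 on exons of Araport11 gene models, with strand setting 2 and a mapping quality of at least 10, per the file headers. A read pair counts 2 times, and reads that map to several places were not. TAIR10, FastQC 0.12.1, fastp and STAR 2.7.11a are listed in the submitters' processing notes.

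The members and lists were chosen with earlier results of these data known. Of 18 columns, that of WT 0 mM library 2 was dropped: its counts equalled those of library 1 in 24515 of 24532 genes, a difference smaller than sampling noise, so the pair counts as 1 sample. The 17 genes that differed, no member among them, were left out of the tests.

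Low genes were removed with edgeR 4.0.16 (R 4.3.3) by its own filter, libraries were scaled by TMM, and 1 mean for each of the groups was fitted by robust quasi-likelihood over 17 libraries with a shared spread. All tests are two-sided and adjusted by Benjamini-Hochberg over 21383 genes at a threshold of 0.05. The standard error is the size of the log2 difference divided by the root of the F statistic. CPM use TMM-scaled library sizes, and centred log2 CPM a prior count of 2. DESeq2 1.42.0 was an alternative. Data simulated from the fitted spread were used to check the size of the fitted log2 differences, with no requirement set on the calls. The floor of 3 counts covers counting error only and treats the 2 counts of a read pair as independent. Promoter windows and coding sequences are from RefSeq TAIR10.1, whose gene spans equal those of the table for 99.7% of 24528 matched genes and for all 10 members. Named other genes are the 5, 4 and 4 of each list with the highest mean CPM, and the 6 nearest patterns.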

Additional observations from a re-analysis of the deposited data

How the results depend on the processing

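Over 23 alternatives (DESeq2's size factors, no filter on low counts, DESeq2 as the test, only the groups compared, the repeated column kept, each library left out in turn, and both libraries that went against their labels left out), 506 recomputed single-gene values that were called with all libraries kept their sign and 2 lost the call, while 67 of 2019 uncalled ones changed sign and none gained a call. Both losses were COR15B in WT, 1 at an adjusted p of 0.0595 with only the groups compared in the edgeR fit and 1 without WT 150 mM library 1. All values called with all libraries were salt differences within a genotype. The members were chosen on that contrast, so the kept signs restate the choice and nothing is read from them. Members called ranged from 7 to 8 in WT and stayed at 7 in C4, 7 in B2 and 0 in all 8 comparisons between genotypes or of salt responses. With libraries left out in turn, the members' median log2 difference ranged from 4.68 to 6.85 for salt in WT, 3.24 to 4.35 for salt in B2, -0.035 to 1.2 for B2 against WT at 0 mM, -0.74 to 0.61 for C4 against WT at 150 mM, -1.37 to 0.18 for B2 against WT at 150 mM, -1.92 to -0.19 for the salt response of C4 against WT and -1.87 to -0.20 for that of B2 against WT. The cause was not tested. Counts over all genes moved more: genes called for salt were 3575 in WT (361 without WT 150 mM library 1, 991 with only the groups compared, 5167 with the repeated column kept), 2580 in C4 (1307 without C4 150 mM library 2 to 3559 by DESeq2) and 3473 in B2 (702 without B2 150 mM library 2 to 5738 without B2 150 mM library 1). A lone WT library at 150 mM is assumed to vary like the other groups. Without both libraries that went against their labels, 77 genes were called between C4 and WT and 554 between B2 and WT at 150 mM, against 0 in each with all libraries, and 1483 against 3473 for salt in B2. No paired analysis was possible because the labels give groups no shared replicate numbers. Library number (2 in WT at 150 mM) and the few counts of COR15B and LEA4-1 limit the precision.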
